A study of Mus musculus with 4 samples.

Results

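The BCL2 family holds the proteins that decide whether the outer mitochondrial membrane is opened during apoptosis. The 10 genes examined form a list chosen by function: the anti-apoptotic Bcl2, Bcl2l1 and Mcl1, the effectors Bax and Bak1, and the BH3-only genes Bcl2l11, Bbc3, Pmaip1, Bid and Bik. Genes were read through probe sets assigned to 1 symbol, taking the one with the highest mean over the arrays where there were several. Of the 10, 9 had such a probe set, out of 19938 genes in all. Bax had none and was not analysed here. Of the 9, 8 lay above the expression floor (the level that 95% of receptor genes of smell and related senses stay under) on all 4 arrays, and Bik did so on 2.

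Gene expression was measured in flow-sorted crypt epithelial cells of the small intestine of adult mice given tamoxifen for 2 days, on 4 Affymetrix arrays with 1 array per group. The Zip7 KO mice were Zip7flox/flox, with both copies floxed of Slc39a7 (Zip7), a zinc transporter of the endoplasmic reticulum (ER) and Golgi. The control mice were Zip7flox/+, with 1 floxed copy, so that Cre could act on that copy in controls too. Mice of both genotypes also carried villin-CreERT2, which is driven in intestinal epithelium, and Lgr5-EGFP-ires-CreERT2, which reports the stem cell receptor Lgr5. From each genotype a fraction labelled Lgr5-Hi and a fraction labelled Lgr5-Med (Lgr5-Mid in the titles) was taken. The number of animals behind an array is not in the labels.

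In textbook terms, the anti-apoptotic proteins hold BAX and BAK in check, and the BH3-only proteins relieve that block or activate BAX and BAK directly. Once active, BAX and BAK form pores through which cytochrome c leaves the mitochondrion, and caspases are then activated through APAF1. Transcription is one layer of this control: p53 induces Bbc3 (PUMA) and Pmaip1 (NOXA), and the ER stress factor CHOP, encoded by Ddit3, is known to raise Bcl2l11 (BIM) and to lower Bcl2. MCL1 and the BH3-only proteins are also controlled by protein turnover and modification, which arrays do not measure.

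The labels were checked first. Under the label Lgr5-Hi, Slc39a7 stood at 9.02 in Zip7 KO and 8.92 in control, and under Lgr5-Med at 8.22 in Zip7 KO and 8.61 in control, in log2 units as for every level below. It is not known here whether its probes read the deleted exons, so these values do not check the deletion. Lgr5 ran against the fraction labels, at 7.93 and 11.24 in the Zip7 KO arrays labelled Lgr5-Hi and Lgr5-Med and at 7.79 and 10.97 in the control arrays. The labels are kept, and exchanging them in both genotypes would turn the sign of every difference between fractions below. The same exchange would place each genotype difference, with its sign, under the other label, and would turn the sign of each gap between them. Xist was at 5.59 and 5.43 in the Zip7 KO arrays and at 11.64 and 11.84 in the control arrays, so sex and genotype cannot be told apart. All 8 epithelial markers were above the floor on every array, with Epcam between 11.57 and 11.66.

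The promoters shown are those of the member that differed most between fractions (Bcl2), of the member furthest from 0 between genotypes under the label Lgr5-Med (Mcl1), and of Bcl2l15, a relative outside the list that differed more than any member. Each is the RefSeq window of 250 bases before to 50 bases after the gene's start in GRCm38.p6, read 5′ to 3′ on the gene's strand. Capitals mark a GC box (GGGCGG, either strand) in Bcl2 and Mcl1, and in Bcl2l15 a C/EBP-ATF composite element (TGATGNAA, here on the opposite strand) followed by a TCF/LEF core (CTTTGA).
Bcl2, chr1:106714241-106714540, minus strand: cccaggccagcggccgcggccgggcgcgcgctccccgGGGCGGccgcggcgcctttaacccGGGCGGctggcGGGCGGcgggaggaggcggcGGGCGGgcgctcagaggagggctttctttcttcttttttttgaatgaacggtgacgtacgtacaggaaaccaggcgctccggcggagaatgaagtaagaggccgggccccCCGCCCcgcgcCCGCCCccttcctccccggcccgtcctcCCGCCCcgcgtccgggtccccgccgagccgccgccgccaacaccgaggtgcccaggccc
Mcl1, chr3:95658471-95658770, plus strand: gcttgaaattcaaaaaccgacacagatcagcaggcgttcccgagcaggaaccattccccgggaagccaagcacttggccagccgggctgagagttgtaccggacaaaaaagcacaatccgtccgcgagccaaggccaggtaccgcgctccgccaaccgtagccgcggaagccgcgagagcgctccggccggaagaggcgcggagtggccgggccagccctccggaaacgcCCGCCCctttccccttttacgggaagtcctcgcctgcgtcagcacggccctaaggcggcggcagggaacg
Bcl2l15, chr3:103832446-103832745, plus strand: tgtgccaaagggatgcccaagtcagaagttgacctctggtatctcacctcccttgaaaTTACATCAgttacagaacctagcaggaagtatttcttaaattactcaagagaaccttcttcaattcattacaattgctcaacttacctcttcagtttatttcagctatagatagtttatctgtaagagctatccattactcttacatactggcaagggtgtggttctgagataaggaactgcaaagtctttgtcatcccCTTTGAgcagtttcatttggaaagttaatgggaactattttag
The Bcl2 window is 76% G and C with 44 CpG dinucleotides and 7 GC boxes, and that of Mcl1 is 65.7% G and C with 33 CpG dinucleotides and 1 GC box. The Bcl2l15 window is 38.3% G and C and holds no CpG, against medians of 52.7% and 7 CpG dinucleotides over 32851 promoters. Its C/EBP-ATF element, the kind of site bound by ATF4 and CHOP, lies at -192 to -185, with the start counted as 0. That element was in 3.97% of all promoters and in 0 of the 13 promoter windows of the 8 members that have one. The GC box, a site of SP1-type factors, was in 35.7% of all promoters and in 9 of these 13, the TCF/LEF core in 16.0% and in 1, the E-box (CACGTG) in 7.15% and in 2, the TATA box (TATAAA) in 13.6% and in 0, and the ER stress response element (CCAAT, a spacer, then CCACG) in 0.119% and in 0. Both strands were searched, and none of these matches shows that a factor binds.

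Zip7 KO and control arrays differed little in the 9 measured members. None of the 8 members counted under the label Lgr5-Hi and none of the 9 under Lgr5-Med differed by 2-fold, a size reached by 0.483% and 0.685% of all genes counted. None differed by 1.5-fold either, which 2.01% and 2.52% of all genes did. Pmaip1, higher in Zip7 KO by 0.27, was furthest from 0 among arrays labelled Lgr5-Hi. Among those labelled Lgr5-Med it was Mcl1, higher by 0.18. Because each group is a single array, the variation between animals is unknown, no difference was tested, and a small difference cannot be told from none. In sorted populations, fewer cells of a type and less RNA per cell cannot be told apart.

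**Figure D1:**
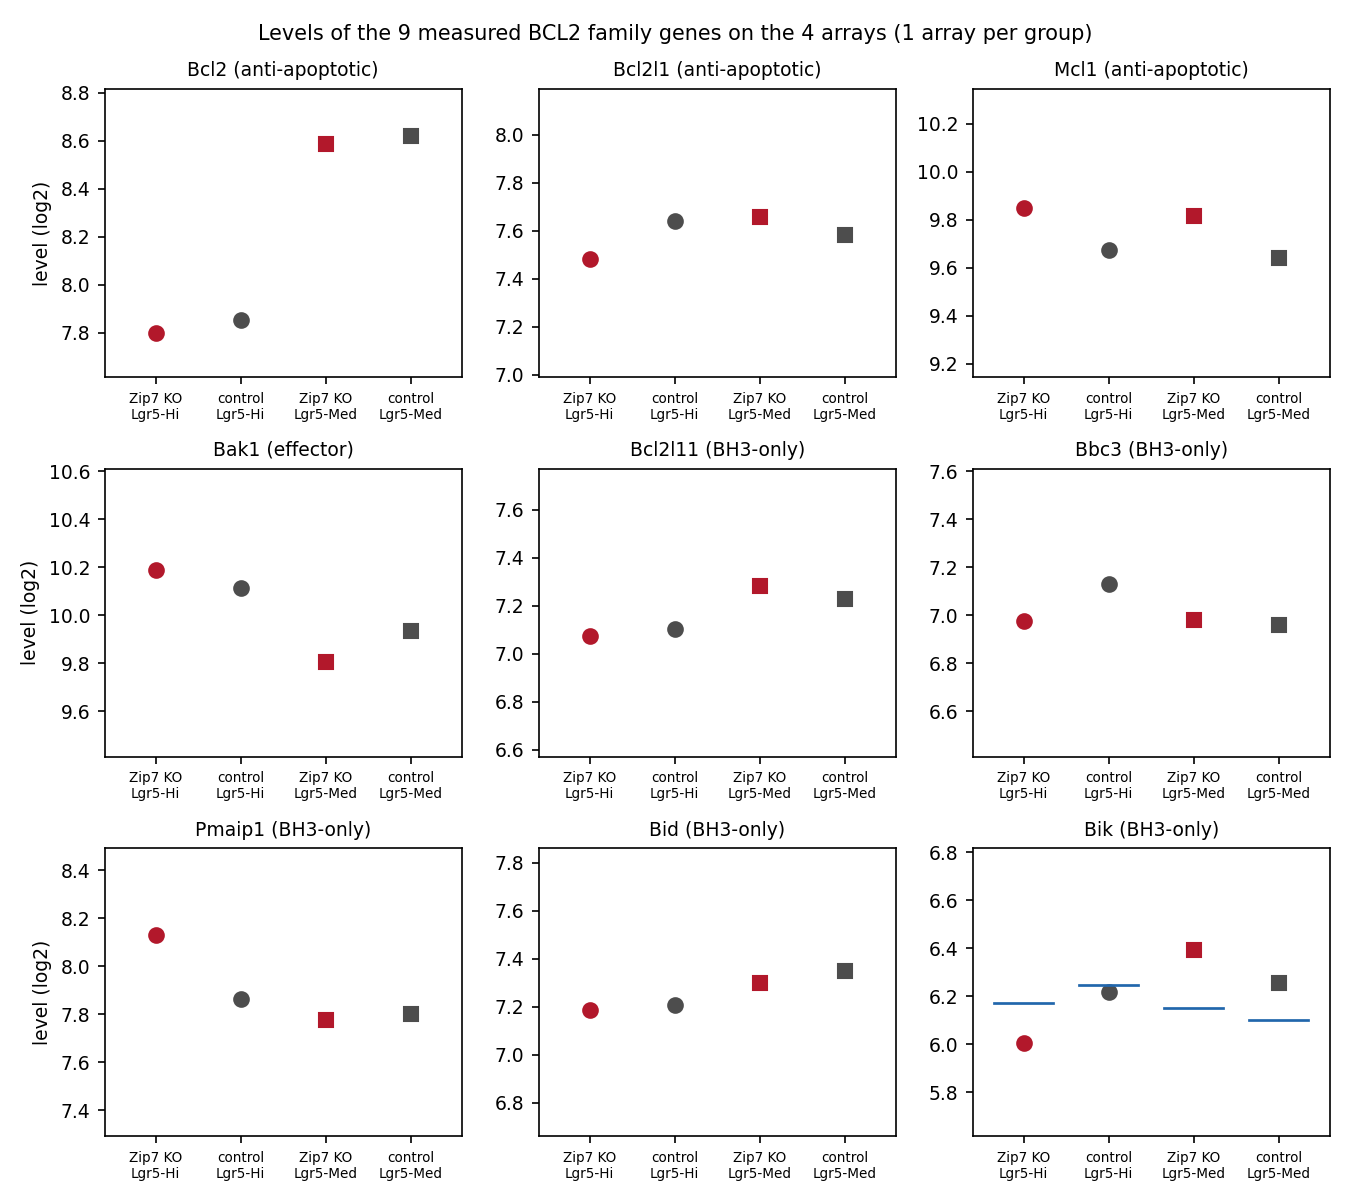
Each panel shows the log2 level of 1 of the 9 measured genes on the 4 arrays, with Zip7 KO in red, control in grey, circles for Lgr5-Hi and squares for Lgr5-Med; blue bars mark the floor where it falls within the panel. Every panel spans the same number of log2 units; Bcl2 separates the fraction labels, with 7.80 and 7.85 under Lgr5-Hi and 8.59 and 8.62 under Lgr5-Med, and Bik lies at the floor.

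Bcl2, the founding anti-apoptotic member, stood at 7.80 in the Zip7 KO array and 7.85 in the control array labelled Lgr5-Hi. Under the label Lgr5-Med it stood at 8.59 in Zip7 KO and 8.62 in control. The genotypes were thus nearly level within each fraction, with differences of -0.05 and -0.03, the second of which turned positive after quantile normalisation (0.0027) and with the loess trend removed (0.01). Only 23.3% and 14.1% of all genes counted had a smaller absolute difference.

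Bcl2l1, which encodes the anti-apoptotic BCL-XL, had levels of 7.48 in Zip7 KO and 7.64 in control under the label Lgr5-Hi, and of 7.66 in Zip7 KO and 7.58 in control under Lgr5-Med. Its differences, -0.16 and 0.08, had opposite signs. Bcl2l1 is transcribed as long and short forms of opposite function, which the probe set is not known to separate.

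Mcl1, the short-lived anti-apoptotic member, was higher in Zip7 KO by nearly the same amount under both labels. Its level was 9.85 in Zip7 KO and 9.67 in control under the label Lgr5-Hi, and 9.82 in Zip7 KO and 9.64 in control under Lgr5-Med. Both Zip7 KO arrays lay above both control arrays, by 0.17 and 0.18 (1.13-fold each). Under the scaling alternatives the first lay between 0.09 and 0.22 and the second between 0.18 and 0.20. These sizes were ordinary, since 63.4% and 65.0% of all genes counted differed by less.

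Bak1, the pore-forming effector, was at 10.19 in Zip7 KO and 10.12 in control under the label Lgr5-Hi, and at 9.81 in Zip7 KO and 9.94 in control under Lgr5-Med. The differences were 0.07 and -0.13, of opposite sign, and the first turned to -0.0078 when the trend of the difference on mean level was removed.

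Of the BH3-only genes, Pmaip1, which encodes the MCL1-binding NOXA, had the largest genotype difference. It stood at 8.13 in Zip7 KO against 7.86 in control under the label Lgr5-Hi, and at 7.78 in Zip7 KO against 7.80 in control under Lgr5-Med. The Zip7 KO array labelled Lgr5-Hi was thus the highest of the 4, and the other 3 lay between 7.78 and 7.86. The difference of 0.27 (1.20-fold) exceeded that of 81.6% of genes, and that of -0.02 under Lgr5-Med, which turned to 0.04 with the loess trend removed, exceeded 10.4%.

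Bbc3, which encodes the p53-induced PUMA, did not move the same way as Pmaip1. Its level was 6.98 in Zip7 KO and 7.13 in control under the label Lgr5-Hi, and 6.98 in Zip7 KO and 6.96 in control under Lgr5-Med. The control array labelled Lgr5-Hi was the highest, and the genotype differences were -0.16 and 0.02, the second turning to -0.05 after quantile normalisation.

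Bcl2l11, which encodes BIM, had levels of 7.08 in Zip7 KO and 7.11 in control under the label Lgr5-Hi, and of 7.28 in Zip7 KO and 7.23 in control under Lgr5-Med, with differences of -0.03 (0.02 with arrays centred on their medians) and 0.05. Bid, which caspase-8 cleaves to link death receptors to mitochondria, had levels of 7.19 in Zip7 KO and 7.21 in control under the label Lgr5-Hi, and of 7.30 in Zip7 KO and 7.35 in control under Lgr5-Med. Its differences were -0.02 and -0.05, both of which turned positive with the loess trend removed, and 8.91% and 19.8% of genes counted differed by less.

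Bik, whose protein sits largely at the ER membrane, was near the limit of detection. Its values of 6.01 in Zip7 KO and 6.22 in control under the label Lgr5-Hi were below the floors of 6.17 and 6.25, so no difference is given. Under the label Lgr5-Med it was at 6.39 in Zip7 KO and 6.25 in control, above floors of 6.15 and 6.10, a difference of 0.14.

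**Figure D2:**
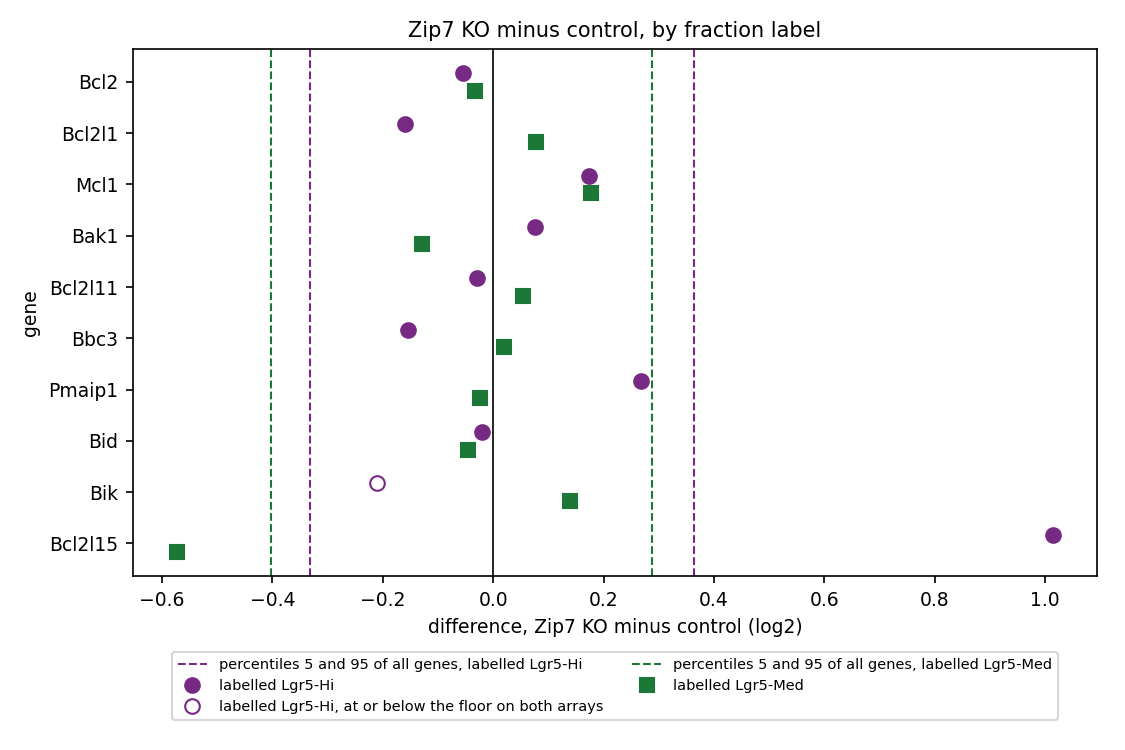
The horizontal axis gives the log2 difference of Zip7 KO minus control for each measured member and for Bcl2l15, with circles for the label Lgr5-Hi, squares for Lgr5-Med, an open circle for a gene at or below the floor on both arrays and dashed lines at percentiles 5 and 95 of all genes counted. All members lie inside the dashed lines of their comparison (-0.33 to 0.36 for Lgr5-Hi, -0.40 to 0.29 for Lgr5-Med), and Bcl2l15 lies outside those for Lgr5-Hi. Its Lgr5-Med square rests on a Zip7 KO value below the floor, and with the floor in its place it would stand inside the lines, at -0.12.

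As a list, the members had a median genotype difference of -0.03 under the label Lgr5-Hi (0.02 with arrays centred on their medians), with 3 of 8 higher in Zip7 KO, beside a median of 0.02 and 55.0% higher over all 12017 genes counted. Under Lgr5-Med the median was 0.02, with 5 of 9 higher, beside -0.03 and 44.2% higher over all 12257 genes. By role, 1 of 3 anti-apoptotic members, the 1 measured effector and 1 of 4 BH3-only genes were higher in Zip7 KO under the label Lgr5-Hi. Under Lgr5-Med it was 2 of 3 anti-apoptotic members, 0 of 1 effector and 3 of 5 BH3-only genes. Set against each other, the genotype differences of the Lgr5-Hi and Lgr5-Med arrays differed by 0.29 for Pmaip1 and by -0.24 for Bcl2l1 (Lgr5-Hi minus Lgr5-Med), the extremes among members above the floor. Neither gap was tested.

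Between fractions, Bcl2 was the member that stood out. It was lower under the label Lgr5-Hi than under Lgr5-Med by 0.79 in Zip7 KO (1.73-fold) and by 0.77 in control (1.70-fold), sizes exceeded by few genes, since 95.5% and 97.4% of genes differed by less. Both arrays labelled Lgr5-Hi lay below both labelled Lgr5-Med, whatever the genotype. No member reached 2-fold, which 2.62% of genes did in Zip7 KO and 1.19% in control. Bcl2 was the 1 member of 9 past 1.5-fold in each genotype, on the lower side, where 3.54% of genes in Zip7 KO and 3.14% in control were.

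The arrays with more Bcl2 were also those with more of the stem cell markers. All 8 markers of that list were lower under the label Lgr5-Hi in both genotypes, with a mean level of 8.61 under Lgr5-Hi and 10.53 under Lgr5-Med in Zip7 KO, and of 8.59 and 10.33 in control. Enteroendocrine markers ran the other way, 8 of 8 higher under Lgr5-Hi, with mean levels of 10.54 and 7.86 in Zip7 KO and of 10.72 and 8.12 in control. Lymphocyte and myeloid markers, a class of cells that also uses Bcl2, had summed levels over 14 genes of 97.7 under Lgr5-Hi and 98.0 under Lgr5-Med in Zip7 KO, and of 107 and 111 in control. Among those counted, 5 of 9 were lower under Lgr5-Hi in Zip7 KO (median -0.14) and 11 of 13 in control (median -0.31). The medians over all genes were -0.0045 and -0.04. Of the 14, Cd79a was at or below the floor on every array, and Ptprc and Cd3g on both Zip7 KO arrays. Cd8b1 and Itgae were so on both Zip7 KO arrays and on the control array labelled Lgr5-Hi. The part of any of these cell types in the Bcl2 difference was not tested.

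The other members differed less between fractions. Bak1 was higher under the label Lgr5-Hi by 0.38 in Zip7 KO and by 0.18 in control, and Pmaip1 by 0.35 in Zip7 KO and 0.06 in control. In Bak1 both arrays labelled Lgr5-Hi lay above both labelled Lgr5-Med. Bcl2l11 was lower under Lgr5-Hi by 0.21 in Zip7 KO and by 0.12 in control, and Bid by 0.11 and 0.14. In each of these genes the arrays labelled Lgr5-Hi lay below those labelled Lgr5-Med. Bik differed by -0.22 or lower in Zip7 KO, with the floor in place of its value under Lgr5-Hi. Mcl1 was nearly level between fractions, at 0.03 in Zip7 KO and 0.04 in control. Bcl2l1 stood at -0.18 and 0.06, and Bbc3 at -0.01 and 0.17. The median of the members was -0.11 in Zip7 KO, with 3 of 9 higher, and 0.04 in control, with 5 of 9 higher. Over all genes the medians were -0.0045 and -0.04, with 49.3% and 43.3% higher.

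**Figure D3:**
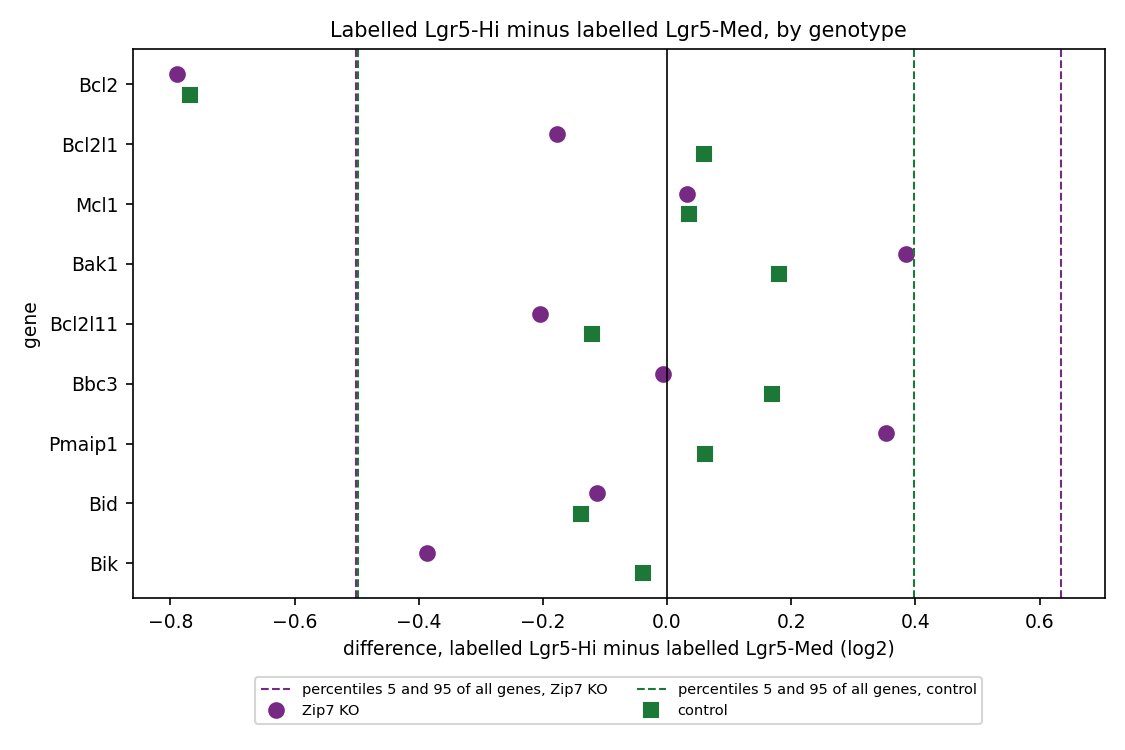
The horizontal axis gives the log2 difference of the label Lgr5-Hi minus Lgr5-Med for the 9 measured members, with circles for Zip7 KO, squares for control and dashed lines at percentiles 5 and 95 of all genes counted in each genotype. Bcl2, at -0.79 and -0.77, is the 1 member outside the dashed lines, in both genotypes.

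Bcl2 had the widest range of the members over the 4 arrays, 0.82. The 5 genes with the most similar profile, by Euclidean distance between log2 levels centred per gene over the 4 arrays, were Acss2, Denn2b, Mrtfb, Rasa3 and Fmnl2, at distances of 0.02 to 0.05. Acss2, for example, had differences between fractions of -0.80 in Zip7 KO and -0.75 in control. Likeness over so few arrays is common: 116 of 11311 genes lay within a distance of 0.2 of Bcl2.

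Other BCL2 family genes were measured for 13 of 17 listed, 11 of them counted in each genotype comparison. In Zip7 KO 4 of 11 were higher among Lgr5-Hi arrays and 5 of 11 among Lgr5-Med arrays, with medians of -0.08 and -0.0038. Over all genes 55.0% and 44.2% were higher, with medians of 0.02 and -0.03. Bcl2l15 (BFK), a relative known from the gastrointestinal tract, was the exception in size. Under the label Lgr5-Hi it stood at 8.08 in Zip7 KO and 7.07 in control, and under Lgr5-Med at 5.70 in Zip7 KO, below the floor, and 6.28 in control. It was thus higher in Zip7 KO by 1.01 (2.02-fold) under the label Lgr5-Hi, where 0.25% of genes were higher by 2-fold. Under Lgr5-Med the difference was -0.12 or lower, with the floor in place of the Zip7 KO value. The 2.02-fold difference is at the edge of the threshold and came to 0.98 on the log2 scale after quantile normalisation.

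Bcl2l15 also separated the fractions. It was higher under the label Lgr5-Hi by at least 1.93 in Zip7 KO and by 0.79 in control. Goblet cell markers were higher under Lgr5-Hi as well, 7 of 7 in both genotypes, with mean levels of 12.08 and 10.61 in Zip7 KO and of 12.09 and 11.07 in control, and so were 9 of 10 enterocyte markers in Zip7 KO and 5 of 10 in control. Enterocyte markers averaged 11.37 in Zip7 KO and 11.40 in control under Lgr5-Hi, and 10.90 and 11.46 under Lgr5-Med. Paneth cell markers were higher under Lgr5-Hi in 8 of 8 cases in both genotypes, by medians of 1.62 in Zip7 KO and 1.02 in control, and tuft cell markers in 5 of 5, by 0.58 and 0.95. Enteroendocrine markers were higher under Lgr5-Hi in 8 of 8 cases in both genotypes too, by medians of 2.85 in Zip7 KO and 2.57 in control. The part of these cells in the Bcl2l15 values was not tested.

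The remaining family genes named by size differed by less than 1.5-fold between genotypes. Bcl2l12 was lower in Zip7 KO under both labels, by 0.35 and 0.25, and Bcl2l13, a mitochondrial relative, was higher under both, by 0.16 and 0.14. Bok, a BAX-like effector, was at -0.08 in the Lgr5-Hi comparison and 0.30 in the Lgr5-Med one, and Bcl2l14 was at -0.02 and 0.18. Bad, a BH3-only gene regulated by survival kinases, was at -0.14 and -0.21, and Hrk, another BH3-only gene, at -0.15 and -0.0038. Bnip3, a mitophagy receptor, was higher by at least 0.26 under the label Lgr5-Hi, with the floor in place of the control value. Under Lgr5-Med its difference was -0.0083 or lower, with the floor in place of the Zip7 KO value. Its other probe set was below the floor on every array and ran the other way under Lgr5-Hi, at 5.52 in Zip7 KO and 5.86 in control.

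No gene of the caspase machinery, downstream of the family, reached 1.5-fold between genotypes on the probe set used. Of 31 listed genes 26 were counted, 17 of them higher in Zip7 KO among Lgr5-Hi arrays and 8 among Lgr5-Med arrays. Of all genes 55.0% and 44.2% were higher. The medians of the list were 0.06 and -0.12, beside 0.02 and -0.03 over all genes. The median absolute difference of the list was 0.12 and 0.18, beside 0.13 and 0.13 over all genes. Tnfrsf10b, the death receptor DR5 and a CHOP target, was higher under both labels. It stood at 7.90 in Zip7 KO and 7.57 in control under the label Lgr5-Hi, and at 8.32 in Zip7 KO and 7.96 in control under Lgr5-Med, differences of 0.33 and 0.36. Xiap, a caspase inhibitor, was higher by 0.39 and 0.15, and Casp9, the caspase of the apoptosome, was lower by 0.31 and 0.25. Cflar, the caspase-8 inhibitor, was at 0.39 and -0.19, while another of its probe sets gave 0.61 and 0.0025, past 1.5-fold under Lgr5-Hi. Vdac2, an outer membrane channel that binds BAK, was at 0.27 and 0.19. Htra2, a released mitochondrial protease, was at -0.0040 and -0.28. Of the DNA fragmentation factor, the nuclease Dffb was at 0.27 and -0.25 and its inhibitor Dffa at 0.13 and 0.25. Apaf1 was at -0.01 and -0.18.

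Upstream regulators held several of the larger differences under the label Lgr5-Hi. Of 31 listed genes 28 were counted there, 21 higher in Zip7 KO, beside 55.0% of all genes. By 1.5-fold 4 were higher, as 1.08% of all genes were, and the median was 0.21 beside 0.02 over all genes. The list was chosen with earlier results of these data known, so its excess over all genes is a description and was not tested. Trib3, the CHOP-induced pseudokinase, was at 7.90 in Zip7 KO and 6.88 in control, a difference of 1.03. Ddit3 (CHOP) stood at 9.26 in Zip7 KO against 8.70 in control, a difference of 0.56. The chaperone gene Hspa5 (BiP) and the ER stress sensor Atf6 were each higher by 0.61, and Atf4 by 0.28. The stress-induced Sesn2 and Sesn1 were higher by 0.67 and 0.58, and the p53 targets Zmat3 and Ccng1 by 0.51 and 0.42. Of the members linked to CHOP or p53 above, Bcl2 was at -0.05, Bcl2l11 at -0.03, Bbc3 at -0.16 and Pmaip1 at 0.27 on the same arrays.

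Under the label Lgr5-Med 13 of 28 of the same regulators were higher, beside 44.2% of all genes. Their median was -0.04, beside -0.03 over all genes. Zmat3 and Ccng1 were higher by 0.36 and 0.33, and Ddit3 by 0.30, Hspa5 by 0.25, Trib3 by 0.31 and Atf4 by 0.03. Sesn1 was at 0.06, Sesn2 at -0.06 and Atf6 at -0.18. Pim1, a survival kinase that phosphorylates BAD, was lower by 0.59, just past 1.5-fold, as 2.1% of all genes were. Stat3, which can induce Bcl2l1 and Mcl1, was lower by 0.57, and Foxo3, which induces Bcl2l11 and Bbc3, by 0.55. Beside these, Bcl2l1 was at 0.08, Mcl1 at 0.18, Bcl2l11 at 0.05, Bbc3 at 0.02 and Pmaip1 at -0.02. Trp53 was not analysed here.

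**Figure D4:**
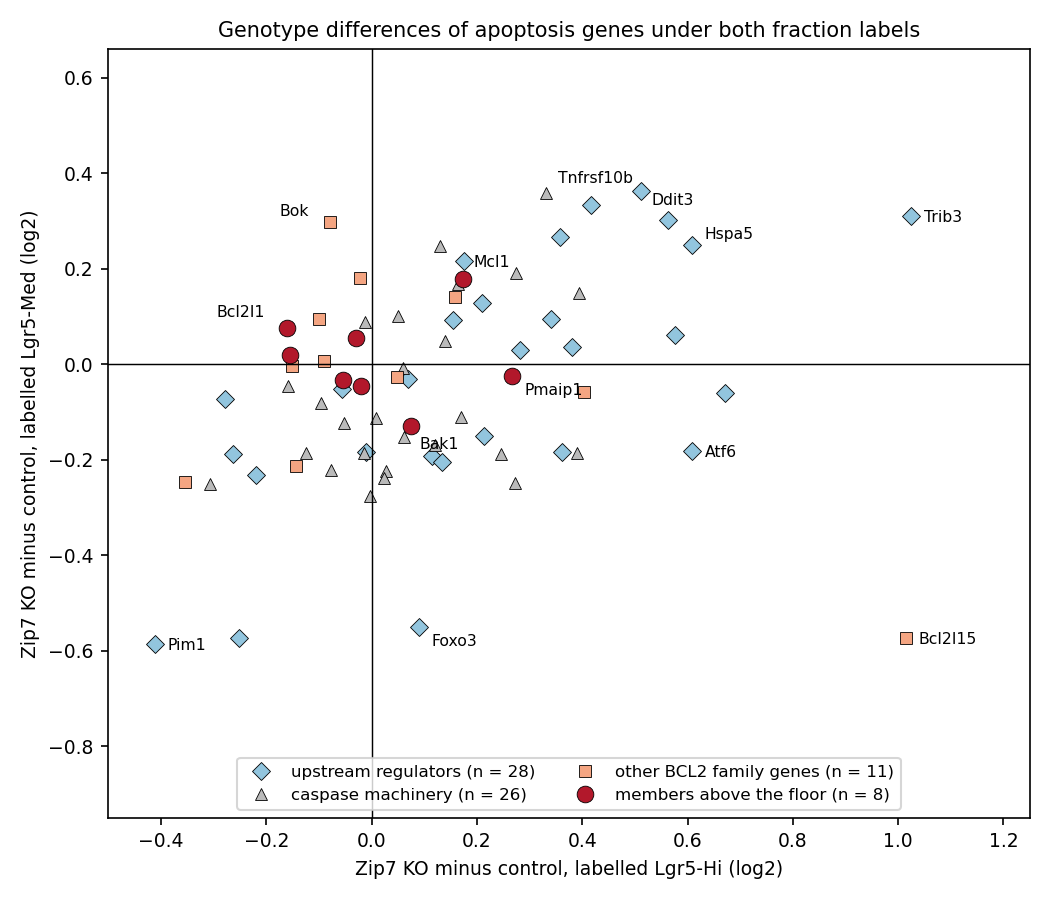
Each point is a gene counted in both genotype comparisons, with the log2 difference of Zip7 KO minus control under the label Lgr5-Hi on the horizontal axis and under Lgr5-Med on the vertical axis, coloured by gene list. The 8 members lie close to the origin, between -0.16 and 0.27 and between -0.13 and 0.18, while Trib3 and Bcl2l15 lie past 1 on the horizontal axis. The vertical place of Bcl2l15 rests on a Zip7 KO value below the floor.

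Cell type markers differed between genotypes in the same arrays, some lists far more than others. Over all genes counted, 55.0% were higher in Zip7 KO under Lgr5-Hi and 44.2% under Lgr5-Med, with medians of 0.02 and -0.03. Lymphocyte and myeloid markers were lower in Zip7 KO in 10 of 11 cases for Lgr5-Hi and in 12 of 13 for Lgr5-Med. The exception under each label was the myeloid marker Cd68, higher by 0.23 and 0.29, while the myeloid Lyz2 was at -0.16 and -0.62. The summed level of the list was 97.7 in Zip7 KO and 107 in control under Lgr5-Hi, and 98.0 and 111 under Lgr5-Med. Paneth cell markers were lower in 7 of 8 and 8 of 8 cases, with mean levels of 10.93 in Zip7 KO and 11.62 in control under Lgr5-Hi, and of 9.38 and 10.71 under Lgr5-Med. Enterocyte markers were lower in Zip7 KO in 6 of 10 cases for Lgr5-Hi and in 10 of 10 for Lgr5-Med, with median differences of -0.09 and -0.58. Goblet cell markers were lower in 4 of 7 and 6 of 7 cases, with medians of -0.05 and -0.36, and enteroendocrine markers in 5 of 8 cases in both, with medians of -0.30 and -0.23. Stem cell markers were lower in 5 of 8 and 3 of 8 cases, with medians of -0.09 and 0.19, and tuft cell markers in 2 of 5 and 0 of 5, with medians of 0.07 and 0.19. The part of these cells in the levels of the BCL2 family was not tested.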

How the data were processed

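The authors summarised each probe set with RMA, per the submitters' processing notes, and deposited 1 log2 value per array. The base of the log is read from the span of the values, 3.08 to 14.6, and RMA's software and version were not stated. The platform annotation gave 1 gene symbol to 21789 of 35557 probe sets, which were used, several to 1621, and did not list 12147. The Bcl2a1 probe sets that name several genes were left out. Each array's floor was percentile 95 of its levels for 1203 genes of olfactory, trace amine and vomeronasal receptors, and a comparison counted the genes that exceeded it on either of its arrays. Differences are log2 differences of 1 array against 1 array, without a test, computed in Python 3.11.15 with pandas 2.3.3. An additive fit over the 4 arrays was not run. The number of arrays limits the precision.

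The script was tested on simulated data. The members and gene lists were chosen with earlier results of these data known, and the motifs and the promoters shown were chosen after values were seen. All 10 members are named, with up to 5 genes by size of genotype difference from each of the other family, caspase and upstream lists, with Ddit3, Atf4, Trp53, Hspa5 and Apaf1, and the 5 genes closest in profile to the member with the widest range. Alternatives were quantile normalisation, median centring, removal of a loess trend, the mean of probe sets, another floor, no floor and a threshold of 1.5-fold. Matched by symbol, 8 of the 10 members had a RefSeq promoter.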

Additional observations from a re-analysis of the deposited data

Results flagged for a closer look

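Among the genes named, 4 had genotype differences of opposite sign under the 2 fraction labels, each larger than the median absolute difference of all genes (0.129 under Lgr5-Hi and 0.126 under Lgr5-Med) on the deposited values. For Bcl2l15 this rests on a Zip7 KO value below the floor, and its bound under Lgr5-Med, -0.124 or lower, does not by itself pass that size. Listed genes that were not named can meet the same rule, as Trp53inp1 (0.36 and -0.18) and Endog (0.25 and -0.19) did. The share of all genes that meet it was not counted, so the 4 stand without a background. No difference between fractions was tested. None of the 4 is one of the 10 members.

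For Bcl2l15 the Zip7 KO minus control difference under Lgr5-Hi exceeded that under Lgr5-Med by 1.59 on the deposited values, and by at least 1.14 with the floor in place of the Zip7 KO value under Lgr5-Med. For the ER stress sensor gene Atf6 the gap was 0.79, with values of 0.61 and -0.18. For Dffb it was 0.52, with values of 0.27 and -0.25. For Cflar it was 0.58, with values of 0.39 and -0.19 on the probe set used, whereas another probe set gave 0.61 and 0.0025. Its remaining probe set gave 0.48 and 0.03, with 6.240 on the control array labelled Lgr5-Hi, just below that array's floor of 6.245. The difference under Lgr5-Med was thus negative on the probe set used only.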

How the results depend on the processing

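Each of the 5 values of each measured member (4 comparisons and the difference between genotype differences) was recomputed under quantile normalisation, median centring, removal of a loess trend and the mean of probe sets, which gave 180 values. None of the 180 moved by as much as the median absolute difference of all genes, and the largest move was 0.10. The sign turned in 16 of them, none with a deposited difference beyond 0.07 in size. The mean of probe sets changed no member, since each has 1 probe set. The Bcl2 difference between fractions stayed between -0.81 and -0.78 in Zip7 KO and between -0.78 and -0.69 in control. That of Pmaip1 and Mcl1 between genotypes kept its sign under the label Lgr5-Hi.

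The count of members past 2-fold was 0 in all 4 comparisons under every scaling and floor tried. With a threshold of 1.5-fold it became 1, Bcl2, in each comparison between fractions, in Zip7 KO and in control, and was 0 in both genotype comparisons. The median of the members between genotypes turned to 0.02 under Lgr5-Hi with centred arrays and to -0.0018 under Lgr5-Med with the floor at percentile 99. Over all genes, 1.5-fold in place of 2-fold gave 130 higher and 111 lower under Lgr5-Hi (30 and 28 at 2-fold), 52 and 257 under Lgr5-Med (8 and 76), 715 and 431 between fractions in Zip7 KO (227 and 91) and 282 and 385 in control (82 and 64). That last split became 102 higher and 51 lower at 2-fold with the loess trend removed. No paired analysis was possible because the labels give no number that ties a Zip7 KO animal to a control animal. A model with fraction as a block would leave 1 residual degree of freedom; it was not run. Each group has 1 array, so leaving one out removes a comparison.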
